A study of Arabidopsis thaliana with 6 samples.

Results

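The transcripts described here are those of the 200 probe sets that shone brightest in wild-type anthers of *Arabidopsis thaliana*, out of 22746 probe sets measured. They were chosen by their mean over the 3 wild-type arrays, and they are set beside the same probe sets in anthers of the *myb80* mutant. The rule leaves out 9 probe sets that were bright enough, those of SWEET8, AT1G33430, AT5G62080, AT3G07450, AT5G07230, AT1G66850, ATA27 and SHT and 1 shared by VGD1 and VGDH1. The groups were anthers of *myb80* mutant plants, with arrays named replicates 1, 4 and 5-2, and anthers of wild-type plants, with arrays named replicates 2, 5 and 6. RNA came from about 1000 dissected anthers per replicate, spanning stages 5 through 8. The sources used here do not give the mutant allele, the plant accession or what the name 5-2 stands for. The labels call the replicates biological without saying how they were grown, so each p-value reflects the scatter of these samples, part of which may be technical. No value for MYB80 itself is reported, since none of the named probe sets is assigned to it.

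MYB80 belongs to the MYB transcription factors and acts in the tapetum, the innermost layer of the anther wall. That layer feeds the developing microspores and then dies. The tapetum is a secretory tissue that makes wall material, lipids and proteins in large amounts, so genes of the ribosome and of the secretory path are busy there. Microspores and young pollen in turn switch on genes for their own wall, among them pectin-modifying enzymes, and store proteins that later help pollen survive drying. Whole anthers hold all of these cells, and fewer cells of a type cannot be told apart from less RNA per cell.

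Of the 200 probe sets, 83 name 1 gene, 10 match several genes and 107 are unnamed here. Of the 83 genes, 6 lie in the plastid genome and 24 on chromosome 3, against 22 on chromosome 1 and 8, 9 and 14 on chromosomes 2, 4 and 5. Affymetrix marks probe sets that match more than 1 transcript by a suffix, and 22 of the 200 carry one. The brightness of a probe set depends on its probes as well as on its RNA, so the choice ranks signals and not RNA amounts. Intensities below are the deposited ones brought to a common array median, and a value under 16 was raised to 16 before logarithms were taken. Differences are log2 values of mutant minus wild type from limma, and a probe set is called at a Benjamini-Hochberg adjusted p under 0.05 over the 15164 probe sets left after the dimmest 1 in 3 were set aside. All 200 were bright enough to be tested.

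Most of these transcripts were at a similar level in both genotypes, while a minority was several-fold lower in the mutant. Of the 200, 126 (63.0%) differed by less than 1.5-fold and 147 by at most 2-fold. At the other end, 50 were over 2-fold lower, 31 over 4-fold lower and 20 over 8-fold lower in the mutant, whereas 3 were over 2-fold higher and 0 over 4-fold higher. Over all 15164 probe sets tested, 79.4% differed by less than 1.5-fold, 1.91% were over 4-fold lower and 2.37% were over 2-fold higher. Among the brightest 1 in 4 of these by mean over all arrays, the shares were 82.6%, 2.27% and 2.22%. The median log2 difference was -0.23 for the 200 and 0.04 for all probe sets tested, and the median size of the difference was 0.34 and 0.28. Because the wild-type arrays chose the 200, their differences are pulled downward by the choice, and these counts are a description with no test.

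**Figure D1:**
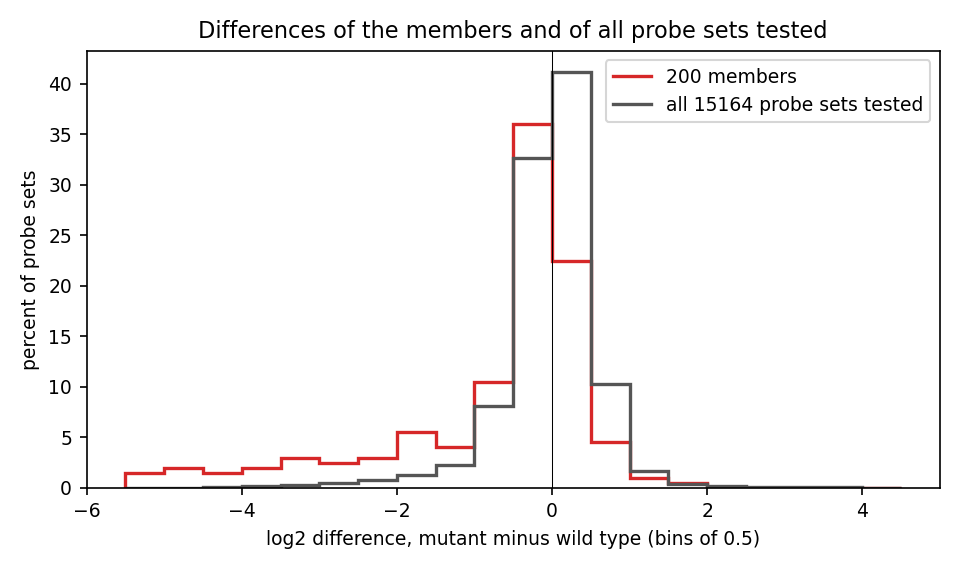
Share of probe sets (y axis, percent) by log2 difference, mutant minus wild type (x axis, bins of 0.5), for the 200 brightest of wild type and for all 15164 tested. Both peak near 0, and the 200 have a long tail to the left, with 31 of them over 4-fold lower in the mutant.

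Choosing 200 probe sets by other arrays shows how much the choice matters. Chosen by the mean of all 6 arrays, 16 were over 4-fold lower and 9 over 2-fold higher. Chosen by the mutant arrays, 3 were over 4-fold lower, 9 over 2-fold lower and 15 over 2-fold higher, and the median log2 difference was 0.05. At the threshold of the choice the levels run on without a step. The last probe set inside was that of AT4G37830, a gene of a cytochrome c oxidase subunit, with a deposited mean of 2491 in wild type. The first outside was that of the plastid RNA polymerase gene rpoA, with 2488.

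limma called 11 of the 200 lower and 1 higher in the mutant, or 12 in either direction, where 1.6% of all probe sets tested were called lower, 0.448% higher and 2.05% either way. The groups of arrays did not overlap in 71 of the 200, with 60 lower on every mutant array and 11 higher on every mutant array. Over all probe sets tested these shares were 8.9% lower and 8.38% higher, 17.3% in all. The 95% interval of the difference lay within 2-fold in 84 of the 200 (42%) and in 49.1% of all probe sets tested. That share depended on brightness over all arrays, with 25.9% in the dimmest 1 in 4 of those tested and 60.5% in the brightest 1 in 4. The 200 thus had a smaller share than the brightest 1 in 4. The calls rest on few arrays: 1 of the 12 called probe sets, that of AT2G03850, was still called in each of the 6 fits with an array removed. Leaving out mutant replicate 4 gave 33 lower, where 2.76% of all probe sets tested were called lower in that fit. Leaving out mutant replicate 5-2 or any 1 wild-type array gave 1 lower, where 0.204% to 0.389% of all were. When all 22746 probe sets entered the test, where 0.00879% were called lower, 0.0044% higher and 0.0132% either way, limma called 0 of the 200. AT2G03850 then had an adjusted p of 0.116.

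**Figure D2:**
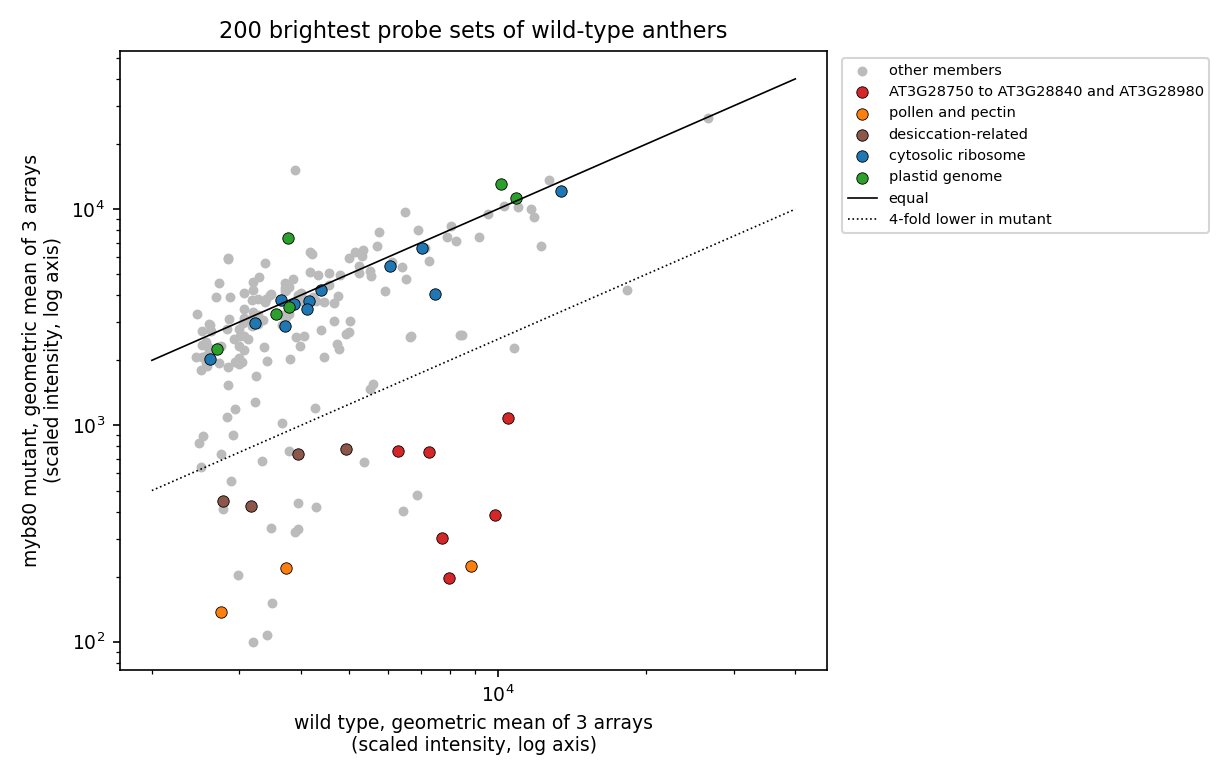
Geometric mean intensity of each of the 200 probe sets in the *myb80* mutant (y axis) against wild type (x axis), 3 arrays each, both on log axes in scaled units. Most ribosomal and plastid members lie near the solid line of equal levels, apart from psbM above it and AT4G39200 below it, and the 9 genes of the chromosome 3 group and of the pollen and pectin group lie below the dotted line of a 4-fold lower level.

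One group of low members was a set of neighbouring genes on chromosome 3. In the RefSeq gene order of TAIR10.1, the stretch from AT3G28750 to AT3G28840 holds 10 protein-coding genes. Of these, 7 have a probe set named for them alone in the annotation used, and 5 were among the 200. A gene without one may still have a probe set that is unnamed here. No other pair of the 77 nuclear genes placed in that order stood within 5 genes of each other. AT3G28980, at place 34 counted from AT3G28750, was also among the 200. The functions of these genes are not known well enough to be given here.

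AT3G28780 stood at 4.97, 2117 and 228 in mutant replicates 1, 4 and 5-2, against 9626, 8991 and 5861 in wild-type replicates 2, 5 and 6. Every mutant array lay below every wild-type array, and mutant replicate 4 lay far above the other mutant arrays. Its log2 difference was -5.33 ± 1.36 (SE over 3 arrays per group), and it was not called (limma adjusted p = 0.0938). Replicate 1 was raised to the floor of 16, so this size is understated. AT3G28840 stood at 50.5, 2448 and 459.6 on the mutant arrays in the same order, against 11849, 10516 and 7694 on the wild-type arrays (-4.68 ± 1.09, adjusted p = 0.0692). AT3G28750 stood at 40.2, 3041 and 226 in the mutant, against 8673, 10590.5 and 5007 in wild type (-4.67 ± 1.23, adjusted p = 0.104). In all 3 genes mutant replicate 4 stood far above replicates 1 and 5-2.

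The other genes of the group showed the same order of arrays at somewhat higher mutant levels. AT3G28830 stood at 94.5, 4085 and 1091 in mutant replicates 1, 4 and 5-2, against 9972, 6433 and 5947 in wild type (log2 difference -3.27 ± 1.08, SE, limma adjusted p = 0.212). AT3G28790 stood at 127, 4038 and 851 in the mutant, against 8785, 4815 and 5850.0 in wild type (-3.05 ± 0.99, adjusted p = 0.201). AT3G28980 stood at 169, 5270.4 and 1404 in the mutant, against 12704, 10204 and 8893 in wild type (-3.28 ± 0.98, adjusted p = 0.155). None of the 6 genes was called. Without mutant replicate 4 all 6 were called lower, with limma adjusted p from 0.00197 to 0.0237, where 2.76% of all probe sets tested were. The median log2 difference was then -5.26 in place of -3.98. Replicate 4 was the highest mutant array in each of the 6, so leaving it out had to deepen their falls. These values are therefore a description. Genes that stand side by side can be close copies whose probe sets share signal, which was not tested.

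The other 2 genes of the stretch with a named probe set were dim in wild type, where a fall can hardly be seen. AT3G28760 stood at 84.9, 6.55 and 87.4 in the mutant and 78.0, 39.7 and 62.6 in wild type (log2 difference -0.24 ± 0.61, limma adjusted p = 0.938). AT3G28770 stood at 27.6, 3.07 and 3.68 in the mutant, against 28.02, 47.02 and 40.2 in wild type, and was too dim to be tested. The groups overlapped in AT3G28760, while in AT3G28770 every mutant array was lower, by little in replicate 1.

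**Figure D3:**
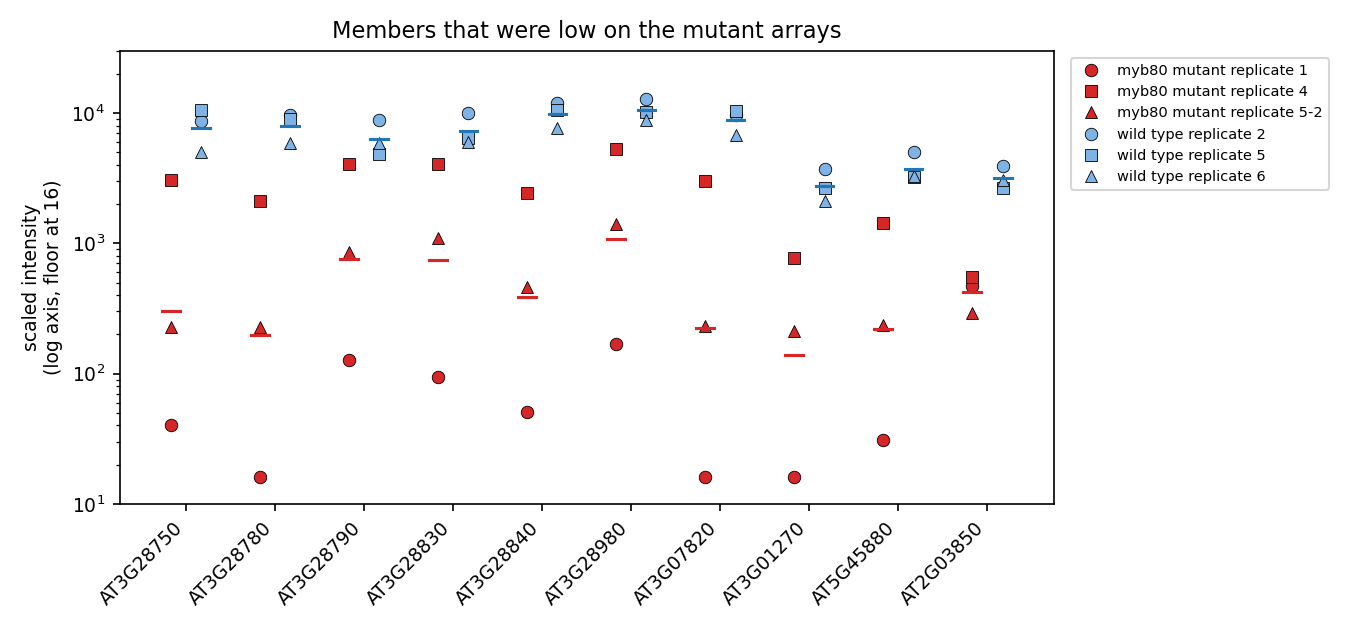
Scaled intensity (y axis, log, values under 16 drawn at 16) of 10 low members on each array, with the 3 mutant arrays left of the 3 wild-type arrays and a bar at each geometric mean. Mutant replicate 4 (red square) is the highest mutant array for each gene and replicate 1 (red circle) the lowest for each but AT2G03850.

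Pollen and pectin genes followed the same order of arrays. AT3G07820, which encodes a polygalacturonase-like enzyme that acts on pectin, stood at 5.45, 2990.1 and 233 in mutant replicates 1, 4 and 5-2, against 9711, 10421 and 6809.8 in wild type. Its log2 difference was -5.30 ± 1.45 (SE, limma adjusted p = 0.117), and replicate 1 was raised to the floor, so the size is understated. AT3G01270, a pectate lyase gene, stood at 14.1, 773 and 212 in the mutant, against 3703, 2672 and 2115 in wild type (-4.32 ± 1.11, adjusted p = 0.096, with replicate 1 at the floor as well). AT5G45880, related to LAT52, a tomato gene of pollen, stood at 30.8, 1426 and 236 in the mutant, against 4987, 3215 and 3259 in wild type (-4.10 ± 1.08, adjusted p = 0.105). No member of this group was called in the full test. All 3 were called lower without mutant replicate 4, where 2.76% of all probe sets tested were. That replicate was the highest mutant array in each of the 3, so this count too is a description.

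Markers of microspores and pollen were also lower in the mutant, again with mutant replicate 4 the highest mutant array in sum. Of 15 such genes listed, 9 have a probe set named for them alone in the annotation used. Their summed intensity was 303, 5195 and 661 in mutant replicates 1, 4 and 5-2, against 16336, 15434 and 11396 in wild-type replicates 2, 5 and 6. AT3G07820 and AT5G45880 are on that list. Without them the other 7 summed to 267, 779 and 191 in the mutant, against 1637, 1798 and 1326 in wild type. Replicate 5-2 was then the lowest mutant array in place of replicate 1. AGL67, a MADS-box gene on the list, lay under the floor of 16 on all 6 arrays. Log2 differences of the 8 tested ran from -5.30 to -0.81. Of the 8, 7 were lower on every mutant array and 2, ACT12 and AGL104, were called lower, neither of them among the 200. Over all probe sets tested these shares were 8.9% and 1.6%. The part of these cells in the low levels of the other members was not tested.

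Of 4 genes tied to drying tolerance, 1 was called lower. This was AT2G03850, which encodes a late embryogenesis abundant (LEA) protein, a kind of protein that protects drying cells. It fell to 473, 548 and 290.4 in mutant replicates 1, 4 and 5-2, against 3931, 2676 and 3046 in wild type. This was a 7.52-fold fall, or -2.91 ± 0.32 on the log2 scale (SE, 3 arrays per group), with a limma adjusted p of 0.00544. Among the 31 members over 4-fold lower it had the smallest spread between mutant arrays, with a log2 SD of 0.479. A second LEA gene, AT5G53820, stood at 321, 2251 and 653 in the mutant, against 6162, 5070.3 and 3859.5 in wild type (-2.67 ± 0.60, adjusted p = 0.0608). The LEA gene AT5G38760 stood at 216, 1305 and 319 in the mutant, against 4373, 2269 and 2166 in wild type (-2.63 ± 0.61, adjusted p = 0.0658). AT1G47980, which encodes a desiccation-related protein, stood at 1681, 968 and 249.7 in the mutant, against 4398, 3309.5 and 4237 in wild type (-2.42 ± 0.59, adjusted p = 0.0813). All 4 lay below wild type on every mutant array, but 1 of the 4 was called. Over all probe sets tested, 8.9% were lower on every mutant array and 1.6% were called lower. The 4 were grouped by hand after values were seen, so these counts are a description. In AT1G47980 the order of the mutant arrays was another one, with replicate 1 highest and replicate 5-2 lowest.

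That second order recurred in a few genes. AT5G13380, a gene of the GH3 family of enzymes that attach amino acids to hormones, stood at 1225, 233 and 29.2 in mutant replicates 1, 4 and 5-2, against 3459, 2609.7 and 2964 in wild type (log2 difference -3.88 ± 1.05, SE, limma adjusted p = 0.113). AT1G02813 stood at 2276, 402 and 80.9 in the mutant, against 3433, 5107 and 4546 in wild type (-3.36 ± 0.94, adjusted p = 0.129). Over the 31 members more than 4-fold lower, mutant replicate 4 was the highest mutant array in 25, replicate 1 in 4 and replicate 5-2 in 2. Relative to the wild-type mean, the median of the 31 was -5.43 in replicate 1, -1.60 in replicate 4 and -3.39 in replicate 5-2.

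The spread between mutant arrays was thus wide where the levels were low. The median SD of log2 values was 2.41 among mutant arrays and 0.39 among wild-type arrays for the 31, and 0.26 and 0.24 for the 126 members within 1.5-fold. For all 15164 tested it was 0.37 and 0.31. Of the 31, 30 lay below wild type on every mutant array and 6 were called lower, where 8.9% and 1.6% of all probe sets tested were. Without mutant replicate 4, 26 of the 31 were called lower, where 2.76% of all were. The 31 were picked for low values on these same mutant arrays, and replicate 4 was the highest of these in 25. These counts are therefore a description.

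Few genes with a single name were called. AT5G16960, which encodes a zinc-binding dehydrogenase of the family that reduces reactive aldehydes, fell to 1764, 850.3 and 2163 in the mutant, against 5167, 4689.8 and 6955 in wild type (3.73-fold, log2 difference -1.90 ± 0.38, SE, limma adjusted p = 0.0394). TET11, a tetraspanin gene of the cell membrane, fell to 547, 1141 and 654 in the mutant, against 3129, 3381 and 1978 in wild type (3.72-fold, -1.89 ± 0.36, adjusted p = 0.0343). scpl29, a serine carboxypeptidase-like gene, fell to 1388, 1018 and 1210.5 in the mutant, against 3069, 2774 and 3015 in wild type (2.47-fold, -1.30 ± 0.26, adjusted p = 0.0392). With AT2G03850 these are all 4 called members with 1 gene. AT5G16960 and TET11 were still called in 1 of the 6 fits with an array removed, and scpl29 in 0. The other 8 called probe sets have no single gene name here.

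OCT1, an organic cation and carnitine transporter, stood at 821, 1692 and 2677 in the mutant, against 7142, 5214 and 4722 in wild type, so the groups did not overlap. Its log2 difference was -1.85 ± 0.42 (SE, limma adjusted p = 0.0621). ZIP6, a zinc transporter gene, stood at 2261, 2557 and 3032 in the mutant, against 2676, 3820.4 and 2674 in wild type, with overlap between the groups (-0.21 ± 0.28, adjusted p = 0.848).

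The ribosome was the largest named group among the bright transcripts. It had 12 members with 1 gene, of which 0 were called, and 1 did not overlap between the groups. Over all probe sets tested, 2.05% were called and 17.3% did not overlap, 8.9% with the mutant lower. The 12 genes are too few to set a share against these. The log2 differences ran from -0.88 to 0.06 with a median of -0.14, and in 9 of the 12 the 95% interval lay within 2-fold. AT3G60245, which encodes the large-subunit protein L37a, stood at 12113, 12638 and 11614 in mutant replicates 1, 4 and 5-2, against 12298, 16933 and 11727 in wild type (log2 difference -0.15, 95% interval -0.75 to 0.44). AT1G52300, a gene of the related protein L37, stood at 7483, 6898 and 5656 in the mutant, against 6655, 7531 and 6948 in wild type (-0.08, -0.66 to 0.49). AT3G24830, which encodes L13a, stood at 4787, 5702 and 5896 in the mutant, against 6193, 5313 and 6751 in wild type (-0.15, -0.73 to 0.42). Their mutant and wild-type arrays overlapped throughout, and the intervals bound any difference to less than 2-fold.

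AT4G39200, which encodes the small-subunit protein S25, was the exception among ribosomal members. It stood at 2700.1, 3914 and 6300.4 in the mutant, against 8092, 6550.1 and 7837 in wild type, with every mutant array lower. It was not called (log2 difference -0.88 ± 0.34, SE, limma adjusted p = 0.313). Of a list of 51 ribosomal protein genes of the cytosol, 26 have a probe set named for them alone in the annotation used. These had a median log2 difference of -0.07, where all probe sets tested had 0.04. Of the 26, 12 are the members above, whose differences the choice pulls downward. Without them the rest summed to 15104, 13735 and 15520 in mutant replicates 1, 4 and 5-2. In wild-type replicates 2, 5 and 6 the rest summed to 15407.5, 14379 and 13320, with overlap between the groups. Of these 26, 0 were called in either direction, and 2 were lower on every mutant array. Over all probe sets tested these shares were 2.05% and 8.9%, so the counts of the 26 are a description.

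**Figure D4:**
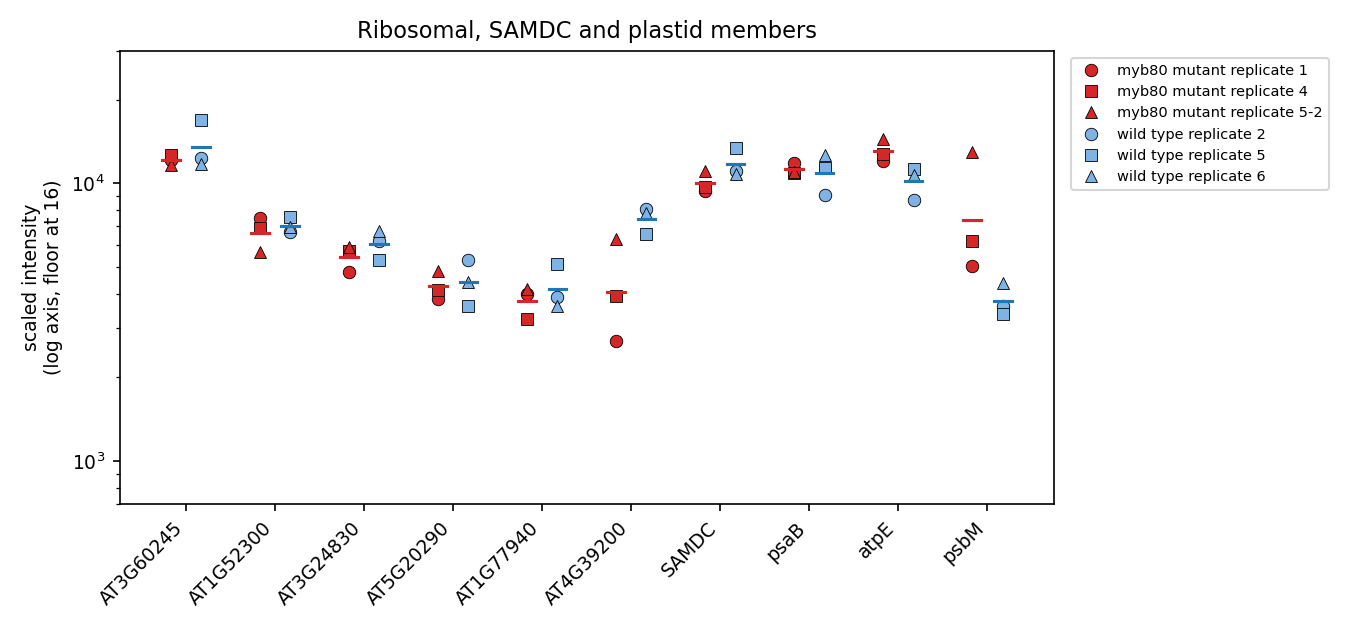
Scaled intensity (y axis, log) of 6 ribosomal genes, SAMDC and 3 plastid genes on each array, mutant arrays left of wild-type arrays, with a bar at each geometric mean. The groups overlap for AT3G60245, AT1G52300, AT3G24830, AT5G20290, AT1G77940, SAMDC and psaB, and stand apart for AT4G39200, atpE and psbM.

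Genes read from the plastid genome stood at similar levels in both genotypes, with 1 that differed more. limma called 0 of the 6, and 2, atpE and psbM, were higher on every mutant array. Over all probe sets tested these shares were 2.05% and 8.38%, and 6 genes are too few to set a share against them. The log2 differences ran from -0.26 to 0.97 with a median of -0.03. psaB, which encodes a core protein of photosystem I, stood at 11856, 10874 and 10950.2 in the mutant, against 9099.5, 11341 and 12595 in wild type (log2 difference 0.04, 95% interval -0.54 to 0.62). atpE, a gene of the ATP synthase, stood at 12049.9, 12752 and 14452 in the mutant, against 8724, 11227 and 10697 in wild type (0.36, -0.21 to 0.94), with every mutant array higher. psbM, a gene of a small photosystem II protein, stood at 5023, 6173 and 12966 in the mutant, against 3607, 3388 and 4362 in wild type (0.97 ± 0.37, SE, limma adjusted p = 0.305). Thus psaB overlapped between the groups, while psbM was higher on all 3 mutant arrays without passing the test. In psbM mutant replicate 5-2 stood well above replicates 1 and 4. A difference between psaB and psbM was not tested.

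Of 6 members that serve protein folding and secretion, 3 were lower on every mutant array and 0 were called. Over all probe sets tested these shares were 8.9% and 2.05%, and 6 genes are too few to set a share against them. CRT1b, which encodes a calcium-binding chaperone of the endoplasmic reticulum, stood at 1994, 2133 and 2085 in the mutant, against 4131, 5695 and 3750.4 in wild type. The groups were well apart, at a log2 difference of -1.10 ± 0.27 (SE), but the probe set was not called (limma adjusted p = 0.0798). AT4G10480, a gene of the complex that meets new proteins at the ribosome, stood at 4325, 5221 and 4789 in the mutant, against 5929, 7308 and 6417 in wild type (-0.45 ± 0.25, adjusted p = 0.543). AT4G30600, which encodes the receptor subunit that docks ribosomes at the endoplasmic reticulum, stood at 3883, 3865 and 4930.0 in the mutant, against 3688, 3993 and 3484 in wild type (0.18, 95% interval -0.40 to 0.75). The other 3 members, SPP, AT1G24510 and AT3G12050, had log2 differences between -0.29 and 0.03. AT4G10480 and AT3G12050 lay slightly lower on every mutant array.

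Mitochondrial members overlapped between the groups, as did 2 of the 4 metabolic members. AT3G10860, a gene of a small subunit of respiratory complex III, stood at 3039, 2943 and 3217 in the mutant, against 2862, 3675 and 2964 in wild type (log2 difference -0.04, 95% interval -0.61 to 0.53). CYTC-1, which encodes the electron carrier cytochrome c, stood at 2055, 1967 and 2784 in the mutant, against 4121, 2255 and 3138 in wild type (-0.46 ± 0.31, SE, limma adjusted p = 0.636). The 5 mitochondrial members ranged from -0.46 to -0.04, and all 5 overlapped between the groups. SAMDC, which makes the aminopropyl donor for polyamines, stood at 9412, 9688 and 11109 in the mutant, against 11047, 13344 and 10830.0 in wild type (-0.22, -0.79 to 0.35). cICDH, a cytosolic isocitrate dehydrogenase gene, stood at 2037, 2303 and 2585 in the mutant, against 3309, 3093 and 3747 in wild type (-0.55 ± 0.25, SE, limma adjusted p = 0.425). AT3G02360, which encodes an enzyme of the pentose phosphate pathway, stood at 1282, 1390.5 and 2051 in the mutant, against 2988, 3298 and 2349.7 in wild type, lower on every mutant array but not called (-0.89 ± 0.29, SE, limma adjusted p = 0.213). Of the 4 metabolic members, cICDH and AT3G02360 were thus lower on every mutant array, and neither group had a called member. Over all probe sets tested, 8.9% were lower on every mutant array and 2.05% were called. Groups of 5 and 4 genes are too small to set a share against these.

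Proteases were mixed. Of 8 members, scpl29 was called lower and the other 7 were not called, with a median log2 difference of -0.47 over all 8. Over all probe sets tested, 1.6% were called lower, and 8 genes are too few to set a share against this. AT4G04460, an aspartic protease gene, stood at 4275, 5381 and 9577 in mutant replicates 1, 4 and 5-2, against 6686, 5452 and 4124 in wild type, with overlap between the groups (log2 difference 0.18 ± 0.36, SE, limma adjusted p = 0.911). AT2G03200, also an aspartic protease gene, stood at 1155, 1062 and 576 in the mutant, against 1995, 3039 and 2706 in wild type, all lower (-1.51 ± 0.34, adjusted p = 0.0593). AT1G06260, a cysteine protease gene, stood at 1806, 1641 and 2607 in the mutant, against 3654, 3584 and 3064 in wild type, again all lower (-0.79 ± 0.28, adjusted p = 0.251). SCPL49, a carboxypeptidase gene of the same family as scpl29, stood at 3643, 1952 and 7680.1 in the mutant, against 4097, 2547 and 3110.3 in wild type (0.25 ± 0.46, adjusted p = 0.906).

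**Figure D5:**
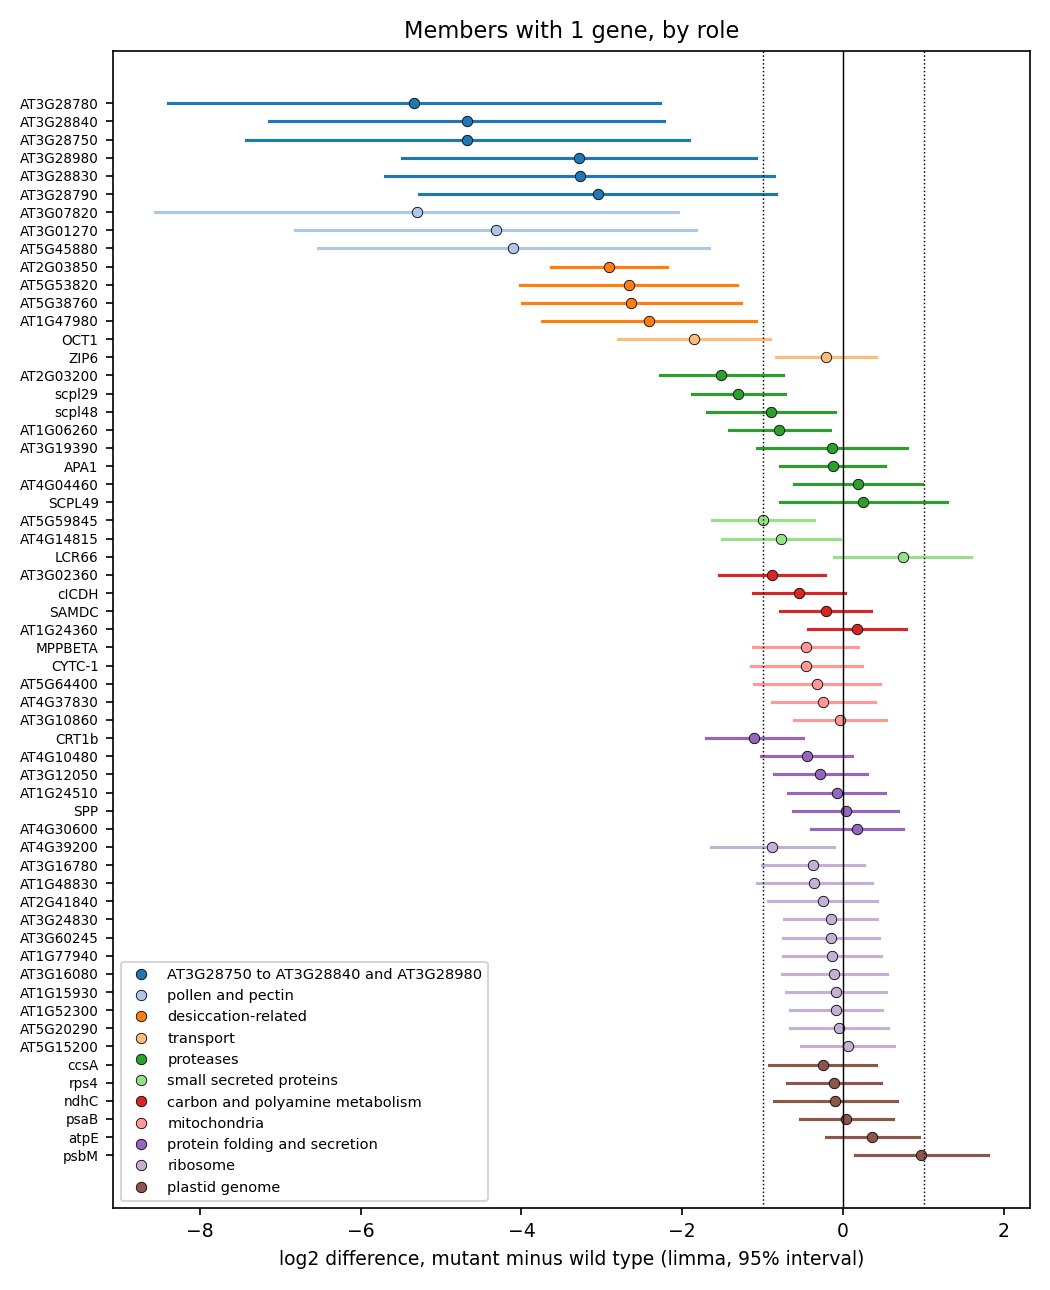
Log2 difference, mutant minus wild type, with its 95% interval from limma (x axis) for the 59 members with 1 gene that were given a role, in rows by gene and coloured by role; dotted lines mark a 2-fold difference. The points of the chromosome 3, pollen and pectin, and desiccation-related genes lie left of the dotted line at -1, and most ribosomal intervals lie between the dotted lines.

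Small secreted proteins did not move one way. LCR66, a defensin gene, stood at 4611, 2915 and 7139 in the mutant, against 1990.0, 3587 and 2872 in wild type (log2 difference 0.74 ± 0.38, SE, limma adjusted p = 0.49). AT5G59845, a gene of the gibberellin-regulated peptide family, stood at 1978, 2212 and 3051 in the mutant, against 4980.0, 4008 and 5353 in wild type, lower on every mutant array (95% interval of the log2 difference -1.63 to -0.37, adjusted p = 0.13). AT4G14815, a lipid transfer protein gene, stood at 2248, 1653 and 3428 in the mutant, against 4077, 3326 and 4659.9 in wild type (-0.77 ± 0.33, adjusted p = 0.377).

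A single member was called higher, and it is unnamed here. Its probe set, with no gene name in the annotation used, rose to 14458, 11758 and 20455 in mutant replicates 1, 4 and 5-2, against 4479, 3598 and 3658 in wild type (3.89-fold, or 1.96 ± 0.29 on the log2 scale, SE over 3 arrays per group, limma adjusted p = 0.0161). All 3 mutant arrays lay above all 3 wild-type arrays, and 2 of the 6 fits with an array removed still called it. Of further bright members, AT1G68875 stood at 9594, 6393 and 12810.5 in the mutant, against 13949, 9589.5 and 12489.9 in wild type, with overlap between the groups (log2 difference -0.36 ± 0.32). AT1G70780 stood at 4906, 5386 and 6069 in the mutant, against 4929, 5864 and 4991 in wild type (0.05, 95% interval -0.52 to 0.62). Among members with 1 gene the largest positive difference was that of AT2G05540, a gene of a glycine-rich protein, which stood at 6813, 6453 and 4791 in the mutant, against 2778, 1224 and 6846 in wild type. Its groups overlapped, since wild-type replicate 6 was as high as the mutant arrays (1.06 ± 0.54, adjusted p = 0.486).

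Of the 200 brightest probe sets of wild type, 142 were also among the 200 brightest by the mutant mean, which is 71% of each list. Of the 58 that were not, 9 had been called lower, beside 1.6% of all probe sets tested. Low mutant values took these 58 out of the list, so that count is a description. The deepest drop in order was to place 3572, and 14 members lay outside the first 1000 in the mutant. Among the 58 that took their places, 41 had been within the first 400 in wild type and 5 were called higher. Since high mutant values brought these 58 into the list, that count is a description, beside 0.448% of all probe sets tested. The 5 included the thionin gene THI2.1, at place 19 in the mutant and 2191 in wild type, and the sugar transporter gene SWEET3, at place 97 and 1179.

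The 200 held a smaller part of the signal in the mutant. They made up 15.4%, 17.4% and 16.7% of the summed deposited intensity in mutant replicates 1, 4 and 5-2, against 20.1%, 20.4% and 19.7% in wild-type replicates 2, 5 and 6. The groups did not overlap, but since wild-type values chose the 200 the share has no test. Across the 200 probe sets, as a description, Pearson's r of log2 values ran from 0.73 to 0.75 between wild-type arrays. It ran from 0.52 to 0.64 between mutant replicate 4 and the wild-type arrays, and from -0.07 to 0.27 between mutant replicate 1 and the wild-type arrays. Mutant replicate 4 therefore stood closer to wild type than replicate 1 over these probe sets.

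Among the 126 members within 1.5-fold, mutant replicate 5-2 was the highest mutant array in 103. Replicate 5-2 had the dimmest array median, and it was the highest mutant array in 64 on the values as deposited and in 38 after quantile normalization. The mutant mean was the lower one in 74 of the 126 as scaled, in 71 as deposited and in 45 after quantile normalization, so the order of arrays and the direction of small differences moved with the scaling. Of other markers, 3 of 27 tapetum genes had a probe set named for them alone in the annotation used. These 3 summed to 1854 to 5318 in the mutant, against 1386 to 2150 in wild type, with 1 called higher and 1 called lower. Likewise 3 of 20 photosynthesis genes summed to 1663 to 2151 in the mutant, against 938 to 1792 in wild type, and 0 were called. Meiosis, floral organ and stress lists had 4 of 15, 2 of 11 and 2 of 11 genes with such a probe set. Of these, 1, 2 and 1 were bright enough to be tested. Of those tested 0 were called, where 2.05% of all probe sets tested were. What these cells add to the levels of the 200 was not tested.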

How the data were processed

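Anther RNA was biotin-labelled and measured on 3 arrays per genotype, per the labels; the probe set names are those of Affymetrix. The authors deposited 1 intensity per probe set and array on a linear scale, as judged from the values; the sources used here do not name software, background correction or scaling. Highest deposited intensities per array ran from 22862 to 29300.1. No mark of saturation was available, and compression of the brightest signals was not tested.

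The 64 control probe sets were left out. Array medians differed by 0.323 on the log2 scale, so each array was multiplied by 1 factor (0.897 to 1.12). Values were raised to 16 and log2 transformed, and limma 3.58.1 in R 4.3.3 (lmFit, eBayes, two-sided, no covariate) was fitted to the 15164 probe sets left after the dimmest 1 in 3 by overall mean. The fit was also run on simulated data, with residuals shuffled over arrays and over probe sets of similar brightness. Shuffling removes the order of the mutant arrays seen in the low members. That run therefore does not show how the test behaves for them.

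Probe sets were named through platform annotation and RefSeq TAIR10.1. The RefSeq table carries no descriptions, so keyword classes matched only 12 of the 83 members with 1 gene, and roles were assigned by hand after values were seen, as was the ribosomal list. Genes were named by rule (among the 20 brightest, called members, narrowest intervals containing 0, up to 3 per class, list genes); the rest after values were seen. Members and lists were chosen with earlier results of these data known. The filtered fit was taken as main with the counts of both fits known. Sequences were not used here. The number of arrays limits precision.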

Additional observations from a re-analysis of the deposited data

How the results depend on the processing

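The count of members called depended on the test and on single arrays. Against 11 members called lower, there were 5 on the intensities as deposited, after quantile normalization or without a floor, 10 with robust variance and 0 with all probe sets tested. Other settings gave 33 lower with a stricter filter on dim probe sets, 39 with a mean-variance trend, 41 with array weights and 31 at adjusted p under 0.1. Over all probe sets tested, the share called lower was 2.6% with the stricter filter, 2.7% with the trend and 3.27% with weights, against 1.6%. It was 0.574% as deposited, 0.877% after quantile normalization, 0.35% without a floor and 1.38% with robust variance. In either direction these counts were 6, 6, 6, 0, 34, 40, 42 and 32, in the order as deposited, quantile, no floor, all probe sets, stricter filter, trend, weights and relaxed threshold, against 12. The 1 higher call became 0 with all probe sets tested. Leaving out 1 array gave 1 to 33 lower, 0 to 2 higher and 1 to 35 in either direction. Chosen by all 6 arrays, 4 were lower, 2 higher and 6 in either direction. Chosen by the mutant arrays, 2 were lower and 6 higher, and the median log2 difference turned to 0.051. With 100 or 400 members, 6 or 20 were lower, 7 or 21 in either direction, and the mean share of summed intensity was 10.7% or 23.9% in the mutant, against 13.6% or 28.4% in wild type. The cause of these differences was not tested. The median log2 difference, -0.23, was -0.055 after quantile normalization, -0.19 on the values as deposited and -0.37 to -0.15 when 1 array was left out. The members whose 95% interval lay within 2-fold numbered 84 of 200, or 42%, where 49.1% of all tested did, and 61 to 75 when 1 array was left out. No paired analysis was possible because the groups share fewer than 2 replicate numbers.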
